A study of Rattus norvegicus with 12 samples.

Results

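The 8 genes described here are Mybphl, Atp1b4, Sbk2, Sbk3, Bmp10, Fam163a, Creg1 and Arhgef5, 8 of the 21239 genes with counts in an RNA-seq table of rat left atrium. They were picked on measured values of the same libraries, for being nearly absent from the libraries of Wistar-Kyoto (WKY) rats and from libraries that look like ventricle, or for being higher in spontaneously hypertensive rats (SHRs). Their SHR over WKY differences are therefore given as a description, without a test. Each symbol was found once in the table, and each identifier was found in the RefSeq gene table. Levels are given in CPM, the count of a gene after every library is scaled to the same round total of reads, and a count of 0 allows a level of up to 0.190 to 0.267 CPM, which is 3 reads.

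RNA was taken from a piece of the left atrium of 12 male rats bought at 14 weeks of age, in 4 groups of 3 libraries. The WKY group, normotensive rats, and the untreated SHR group received saline (7.5 ml/kg/day) for 4 weeks. SHRs of the ARB group were given the angiotensin receptor blocker valsartan (30 mg/kg/day), and the ARNI group was SHRs given sacubitril/valsartan (60 mg/kg/day), which adds a neprilysin inhibitor. The SHR is an inbred strain with hereditary hypertension, so WKY and SHR libraries differ in strain as well as in blood pressure. Libraries held 11252361 to 15823525 reads each.

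For the 6 saline libraries, the strain words of the sample title contradict the library name, and the groups follow the names. The treated libraries carry WKY as a strain label beside an SHR phenotype and are treated as SHRs. Mettl24, taken here as a gene linked to strain, lay at 3.02 to 3.58 CPM in the libraries named WKY and at 0 to 0.0688 CPM in the other 9. Ndufa10l1 had no read in the libraries named WKY and lay at 54.0 to 119 CPM in the other 9. In both genes the libraries named SHR were thus like those of the treated SHRs. Both genes were listed with earlier results of these data known, so they are no independent check of the labels.

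The label of the tissue was set against marker genes. The summed level of 11 atrial cardiomyocyte markers was 459 to 639 CPM in the WKY libraries and 386 CPM in ARNI replicate 2, against 28010 to 77107 CPM in the other 8. The summed level of 6 ventricular markers was 10854 to 11179 CPM in WKY and 12657 CPM in ARNI replicate 2. It was 6514 CPM in SHR replicate 2 and 7823 CPM in ARB replicate 3, and 12.5 to 173 CPM in the remaining 6. The sum of atrial markers was thus low in 4 libraries labelled left atrium, and 2 further libraries held both kinds of marker. Nppa was the largest part of that sum in SHR, with a mean of 36665 CPM against 146 CPM in WKY. Not every atrial marker was low in WKY. Kcna5 had a mean of 9.97 CPM in WKY and 3.22 CPM in SHR, and Gja5 of 14.9 and 15.7 CPM. The others had lower means in WKY, but Dkk3 (259 against 764 CPM) and Kcnj3 (48.6 against 215 CPM) were still present there. Because all 3 WKY libraries are of the ventricle-like kind, chamber and strain cannot be told apart between WKY and SHR, and in bulk tissue fewer cells of a type and less RNA per cell cannot be told apart either. All 9 SHR-strain libraries had the SHR pattern of the strain-linked genes. Of the 3 among them with 6514 CPM or more of ventricular markers, ARNI replicate 2 alone had a low sum of the atrial ones.

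Atrial and ventricular cardiomyocytes share a contractile apparatus but use different versions of its parts, such as the atrial light chains Myl7 and Myl4, and differ in hormones and ion pumps. Mybphl encodes a myosin-binding protein of the sarcomere that is enriched in atria and in the conduction system. Atp1b4 encodes a member of the sodium pump beta family that in placental mammals is found at the inner nuclear membrane rather than in a pump. Sbk2 and Sbk3 encode SH3-domain binding kinases. Bmp10 encodes a secreted ligand of the bone morphogenetic protein family that acts through the endothelial receptor Acvrl1 and, in the adult heart, is made mainly in the right atrium. Creg1 encodes a secreted and lysosomal glycoprotein, Arhgef5 an exchange factor that activates small GTPases, and Fam163a a small membrane protein of which little is known.

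Promoter sequences were available for all 8 genes from RefSeq (build GRCr8, 250 bases before and 50 after the start of each gene). Those of 5 genes are shown, because Mybphl and Atp1b4 were nearly absent from the ventricle-like libraries, Creg1 and Arhgef5 had nearly the same profile over all libraries, and Bmp10 departed from the others. Capitals mark matches, on either strand, to the GATA-factor letters AGATAA and the T-box letters GGTGTG.
Mybphl promoter, chr2:198693202-198693501, plus strand: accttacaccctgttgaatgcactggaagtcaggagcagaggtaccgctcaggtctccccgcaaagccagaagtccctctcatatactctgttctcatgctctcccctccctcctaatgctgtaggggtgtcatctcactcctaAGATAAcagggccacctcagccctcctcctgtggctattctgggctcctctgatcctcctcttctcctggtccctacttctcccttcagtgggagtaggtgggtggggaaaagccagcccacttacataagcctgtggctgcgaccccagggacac
Atp1b4 promoter, chrX:121952727-121953026, plus strand: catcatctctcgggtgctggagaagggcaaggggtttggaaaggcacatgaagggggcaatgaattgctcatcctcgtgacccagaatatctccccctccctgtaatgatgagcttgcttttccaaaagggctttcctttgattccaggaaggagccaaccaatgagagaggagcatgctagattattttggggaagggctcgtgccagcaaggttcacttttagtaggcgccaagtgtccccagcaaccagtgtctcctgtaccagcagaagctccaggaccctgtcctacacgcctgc
Bmp10 promoter, chr4:121429125-121429424, plus strand: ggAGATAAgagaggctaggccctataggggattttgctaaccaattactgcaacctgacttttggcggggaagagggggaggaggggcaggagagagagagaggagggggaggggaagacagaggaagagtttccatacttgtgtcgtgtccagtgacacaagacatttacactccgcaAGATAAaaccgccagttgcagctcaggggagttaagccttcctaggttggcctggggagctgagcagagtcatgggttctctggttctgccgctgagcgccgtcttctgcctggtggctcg
Creg1 promoter, chr13:80552571-80552870, plus strand: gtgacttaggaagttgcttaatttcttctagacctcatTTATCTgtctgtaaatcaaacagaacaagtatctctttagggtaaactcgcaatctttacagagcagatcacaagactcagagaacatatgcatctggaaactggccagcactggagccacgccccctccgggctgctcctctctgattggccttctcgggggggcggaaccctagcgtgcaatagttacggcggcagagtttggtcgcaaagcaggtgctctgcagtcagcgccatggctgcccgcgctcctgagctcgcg
Arhgef5 promoter, chr4:73086990-73087289, plus strand: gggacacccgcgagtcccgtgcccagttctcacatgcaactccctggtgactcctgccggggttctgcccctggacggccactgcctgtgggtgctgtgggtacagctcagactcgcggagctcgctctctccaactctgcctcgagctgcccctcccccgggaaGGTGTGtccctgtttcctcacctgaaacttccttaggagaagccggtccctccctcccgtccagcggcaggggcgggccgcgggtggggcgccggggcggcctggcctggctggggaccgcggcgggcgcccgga

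AGATAA was in the promoters of Mybphl, Bmp10 and Creg1, 3 of the 8, and in 11.6% of all 33469 promoters in the table. It began at -106 from the start of Mybphl, at -248 and -71 in Bmp10, and on the opposite strand at -212 in Creg1. GGTGTG was in Arhgef5, at -85, and in Sbk2, at -193, against 17.9% of all promoters. AAGTG, the core of sites for NK2 homeodomain factors, was in Mybphl, Atp1b4 and Sbk2, against 46.2% of all promoters. The TEAD letters GGAATG occurred in Sbk3, at -240 and 9, against 14.2% of all promoters, and AGGTCA, found in nuclear receptor sites, was in Sbk2, against 16.2%. The MEF2 letters TATTTATA and the TATA box letters TATAAA were in none of the 8 windows, against 1.80% and 14.2% of all promoters. Of the letters searched, Mybphl shared only AAGTG with Atp1b4, and Creg1 shared none with Arhgef5.

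Mybphl, the sarcomeric gene, had 1, 0 and 1 reads in the WKY libraries. It lay at 825, 384 and 791 CPM in SHR replicates 1 to 3, at 877, 824 and 436 CPM in ARB, and at 818, 0.707 and 718 CPM in ARNI. The level in 8 of the 9 SHR-strain libraries was thus 384 to 877 CPM and that in ARNI replicate 2, from 9 reads, was 0.0879% of their median. SHR over WKY the ratio was 11497 (counting interval 3183 to 94937, from 2 WKY reads in all).

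Atp1b4, of the sodium pump beta family, had no read in any WKY library. It lay at 131, 59.2 and 95.9 CPM in SHR, at 149, 132 and 46.2 CPM in ARB, and at 187, 0.0786 and 153 CPM in ARNI, where replicate 2 held 1 read. The SHR mean was at least 1097-fold above the WKY level, with 3 reads over the WKY group as the floor.

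Sbk2 and Sbk3, the kinase genes, kept a low level where Mybphl and Atp1b4 had almost none. Sbk2 lay at 2.98, 1.91 and 3.38 CPM in WKY, at 522, 248 and 524 CPM in SHR, at 390, 428 and 219 CPM in ARB, and at 504, 4.56 and 340 CPM in ARNI. Sbk3 lay at 0.938, 0.783 and 0.267 CPM in WKY, at 438, 196 and 265 CPM in SHR, at 294, 416 and 197 CPM in ARB, and at 463, 1.49 and 174 CPM in ARNI. SHR was 157-fold above WKY for Sbk2 and 449-fold for Sbk3. In ARNI replicate 2, Sbk2 stood at 1.12% and Sbk3 at 0.535% of the median of the other 8 SHR-strain libraries.

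In these 4 genes, SHR, ARB and ARNI libraries overlapped and for Mybphl, Sbk2 and Sbk3 all WKY libraries were below every SHR-strain library. For Atp1b4, the 1 read of ARNI replicate 2 and the 0 reads of WKY could not be ordered at this depth. SHR replicate 2 and ARB replicate 3, the libraries that carried both kinds of chamber marker, had the lowest levels of Mybphl, Atp1b4 and Sbk2 among the 8. For Mybphl they lay at 384 and 436 CPM against 718 to 877 CPM in the other 6, and for Sbk2 at 248 and 219 CPM against 340 to 524 CPM. For Sbk3, ARNI replicate 3 was lower still. The ventricular gene Myl2 lay at 2298 and 2573 CPM in these 2 libraries and at 0.135 to 24.2 CPM in the other 6, and its part in the lower levels was not tested.

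**Figure D1:**
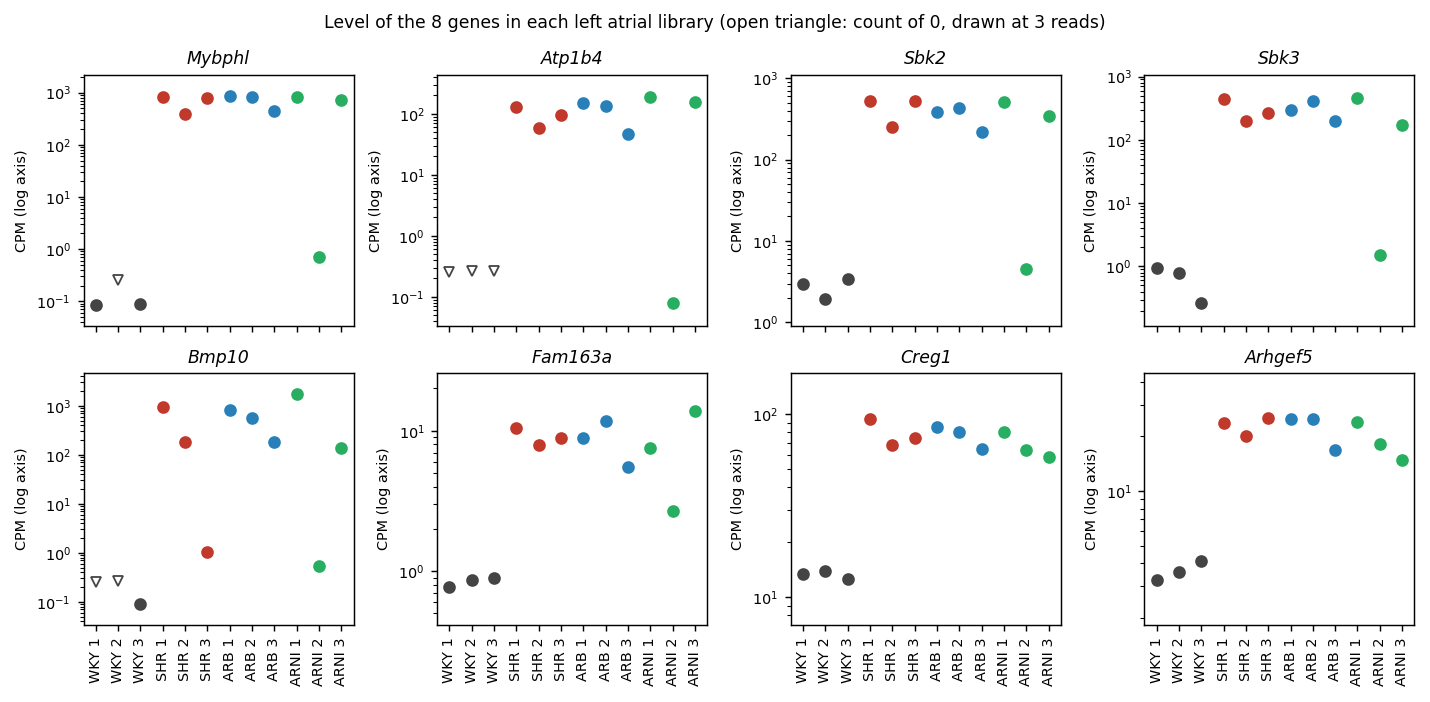
Level of each of the 8 genes in the 12 libraries, as CPM on a log axis, with WKY in grey, SHR in red, ARB in blue and ARNI in green; an open triangle is a count of 0 drawn at the limit of 3 reads. ARNI replicate 2 falls to the WKY end of the scale for Mybphl, Atp1b4, Sbk2, Sbk3 and Bmp10, lies between for Fam163a (2.67 CPM), and stays with the other SHR-strain libraries for Creg1 (64.1 CPM) and Arhgef5 (18.2 CPM).

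Creg1 and Arhgef5 did not behave as genes restricted to the atrium. Creg1 lay at 13.4, 14 and 12.5 CPM in WKY, at 94.4, 68.4 and 74.4 CPM in SHR, at 85.2, 79.9 and 64.8 CPM in ARB, and at 79.6, 64.1 and 58.1 CPM in ARNI. The ventricle-like ARNI replicate 2 was thus inside the range of the other SHR-strain libraries, 58.1 to 94.4 CPM, at 83.3% of their median and 4.82 times the WKY mean. The group means of Creg1 were 13.3 ± 0.738 CPM in WKY and 79.1 ± 13.6 CPM in SHR (SD, n = 3), a 5.94-fold difference.

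Arhgef5, the exchange factor gene, had the same pattern. It lay at 3.24, 3.57 and 4.09 CPM in WKY, at 23.6, 20.0 and 25.1 CPM in SHR, at 24.9, 25 and 16.8 CPM in ARB, and at 24, 18.2 and 14.8 CPM in ARNI. ARNI replicate 2 stood at 76.4% of the median of the other 8 and at 5.0 times the WKY mean. The WKY mean was 3.63 ± 0.428 CPM and the SHR mean 22.9 ± 2.62 CPM (SD, n = 3), a 6.32-fold difference. For both genes every SHR-strain library, ARNI replicate 2 among them, lay above every WKY library, so the levels did not follow the chamber markers. A rise in SHR over WKY was part of how the 8 genes were picked, so that difference is a description only. The label of atrial restriction goes against these values. Only 1 library separates the strain from the chamber, so the pattern in ventricle-like SHR tissue has no replicate.

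Fam163a, the membrane protein gene, lay between the 2 kinds. It was at 0.767, 0.870 and 0.889 CPM in WKY, at 10.4, 7.96 and 8.94 CPM in SHR, at 8.93, 11.7 and 5.55 CPM in ARB, and at 7.52, 2.67 and 13.8 CPM in ARNI. ARNI replicate 2, from 34 reads, was below the other 8 SHR-strain libraries and above all WKY libraries, which had 9, 10 and 10 reads. It stood at 29.9% of the median of the other 8 and at 3.17 times the WKY mean, and SHR was 10.8-fold above WKY.

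**Figure D2:**
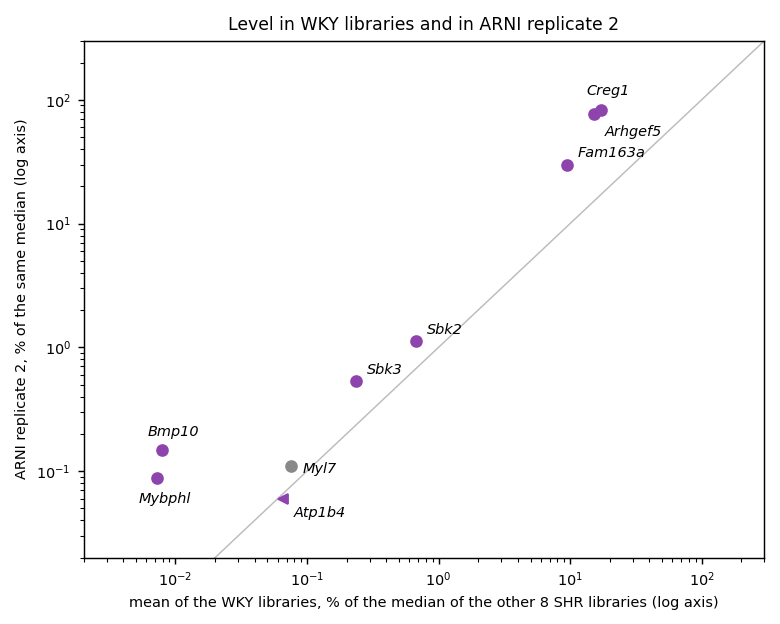
Each gene's mean level in the 3 WKY libraries (horizontal) and its level in ARNI replicate 2 (vertical), both as a percentage of the median of the other 8 SHR-strain libraries, on log axes; the grey line marks equal values, Myl7 is in grey, and Atp1b4 is drawn at its upper limit because WKY had no read. Creg1 and Arhgef5 reach 83.3% and 76.4% in ARNI replicate 2, while Mybphl, Atp1b4, Bmp10, Sbk2 and Sbk3 stay at or under 1.12%; the places of Mybphl and Bmp10 along the horizontal axis rest on 2 reads and 1 read.

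Bmp10, the ligand gene, varied most among the atrial libraries. It had 0, 0 and 1 reads in WKY. It lay at 933, 186 and 1.02 CPM in SHR, at 815, 563 and 182 CPM in ARB, and at 1741, 0.550 and 140 CPM in ARNI. SHR replicate 3 had 15 reads of Bmp10, near the 7 reads of ARNI replicate 2, although its level of Myl7 was 9152 CPM and of Mybphl 791 CPM. SHR over WKY the ratio was 12882 (counting interval 2312 to 508811, from 1 WKY read), and leaving out each library in turn moved the log2 value between 11.18 and 15.24. The SHR mean, 374 ± 494 CPM (SD, n = 3), had a spread larger than itself.

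Shox2, which marks the sinus node region of the right atrium, was read beside Bmp10. It lay at 1.40, 19.3 and 2.85 CPM in SHR, at 10.5, 29.4 and 1.90 CPM in ARB, and at 8.34, 0.629 and 87.4 CPM in ARNI. ARNI replicate 3, with the highest Shox2, had the second lowest Bmp10 of the 8 atrial libraries, 140 CPM. SHR replicate 1, with the lowest Shox2 of the 8, had 933 CPM of Bmp10. The order of the libraries by Shox2 was thus not their order by Bmp10, and the part of the sampled region in the level of Bmp10 was not tested.

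**Figure D3:**
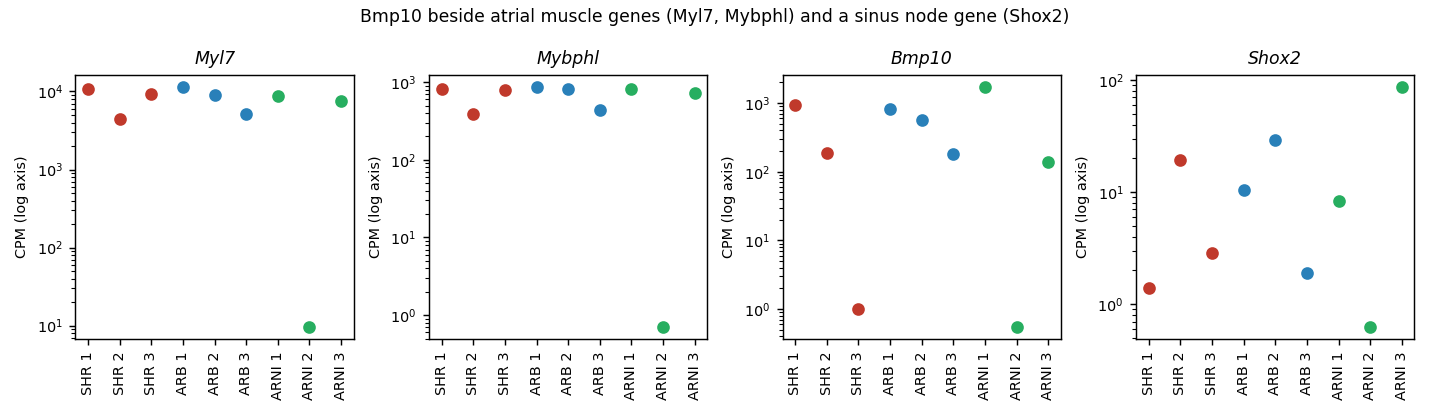
Levels of Myl7, Mybphl, Bmp10 and Shox2 in the 9 SHR-strain libraries, as CPM on log axes, with SHR in red, ARB in blue and ARNI in green. SHR replicate 3 has 9152 CPM of Myl7 and 791 CPM of Mybphl with 1.02 CPM of Bmp10.

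Reads of each gene were next set against reads of Myl7 in the same library. These ratios are not corrected for gene length and are compared between libraries only. Intervals on them are exact binomial and cover counting error only.

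Mybphl had 7.76, 8.57 and 8.65 reads per 100 Myl7 reads in SHR, 7.60, 9.23 and 8.47 in ARB, and 9.46, 7.32 and 9.49 in ARNI. The libraries thus kept nearly the same ratio while Myl7 itself ranged from 9.67 CPM in ARNI replicate 2 to 11547 CPM in ARB replicate 1. The highest ratio was 1.30 times the lowest, the narrowest range of the 14814 genes compared over these 9 libraries. The value of ARNI replicate 2, from 9 reads, has an interval of 3.27 to 14.3. In WKY there were 2 Mybphl reads to 234 Myl7 reads, 0.855 per 100 (interval 0.103 to 3.12). Of these Myl7 reads, 186 came from WKY replicate 1, and without it the value was 2.08 per 100 (interval 0.0517 to 12.2), which overlaps the SHR-strain libraries.

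The next narrowest ranges were those of Sln, which encodes the calcium pump regulator sarcolipin, at 1.39-fold, of Nppa, which encodes atrial natriuretic peptide, at 2.22-fold, and of Myl4 at 2.48-fold. Atp1b4 followed at 2.66-fold, with 1.05 to 1.32 reads per 100 Myl7 reads in SHR, 0.899 to 1.48 in ARB, and 2.16, 0.813 and 2.03 in ARNI. The lowest of these, in ARNI replicate 2, rests on 1 read (interval 0.0204 to 4.61), so the range of Atp1b4 is uncertain. Near absence from ventricle-like libraries was part of how these genes were picked, so the ranks describe the genes and are no evidence on them.

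Sbk2 and Sbk3 kept a narrow ratio in the atrial libraries only. In the 8 libraries other than ARNI replicate 2, Sbk2 had 3.38 to 5.84 reads per 100 Myl7 reads and Sbk3 2.29 to 5.36. In ARNI replicate 2 the ratio was 47.2 for Sbk2 (interval 33.9 to 64.9) and 15.4 for Sbk3 (interval 8.99 to 25.2). In WKY it was 40.6 for Sbk2 (interval 31.6 to 51.7) and 9.83 for Sbk3 (interval 6.11 to 15.1), from 95 and 23 reads. By library it was 18.8, 57.9 and 380 for Sbk2 and 5.91, 23.7 and 30 for Sbk3, and without WKY replicate 1 the pooled values were 125 (interval 84.1 to 187) and 25 (interval 12.1 to 47.8). The low Sbk2 level of the ventricle-like libraries thus exceeded what their few Myl7 reads would carry at the ratio of the atrial libraries.

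Bmp10 ranged from 0.0111 reads per 100 Myl7 reads in SHR replicate 3 to 20.2 in ARNI replicate 1, a range of 1816-fold, and 12079 of the 14814 genes had a narrower one. ARNI replicate 2, at 5.69 (interval 2.24 to 12.1), was close to the median of the other 8, 5.23. Creg1 went from 0.738 to 1.53 in the 8 other libraries to 663 in ARNI replicate 2, Arhgef5 from 0.195 to 0.447 up to 188, and Fam163a from 0.0773 to 0.183 up to 27.6.

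**Figure D4:**
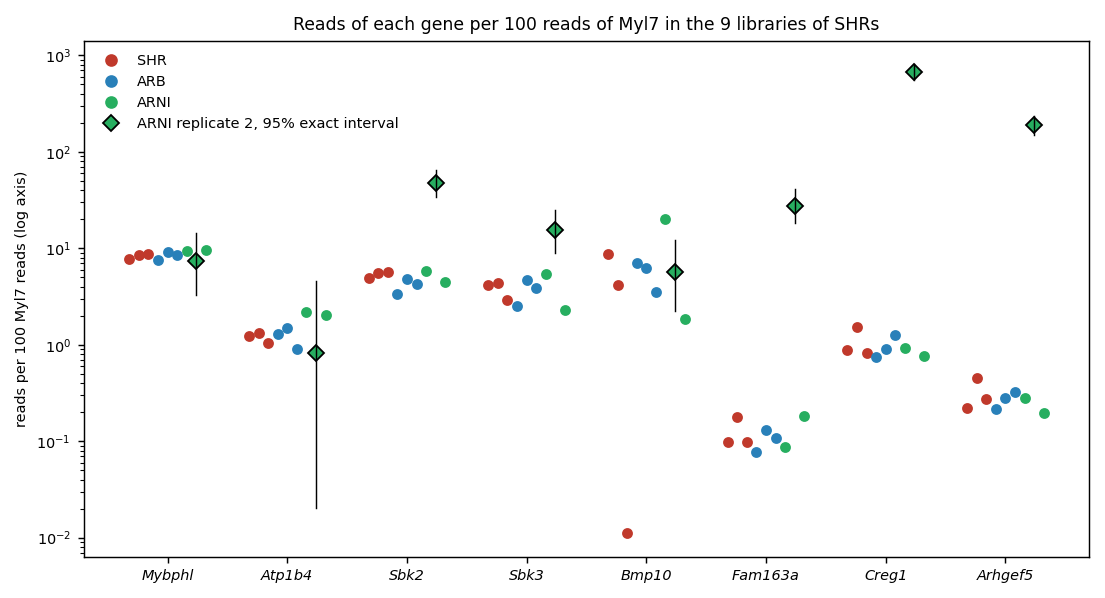
Reads of each gene per 100 reads of Myl7 in the 9 SHR-strain libraries, on a log axis, with SHR in red, ARB in blue and ARNI in green; the black-edged diamond is ARNI replicate 2 with its 95% exact interval. The diamond lies among the other points for Bmp10 (5.69) and above them for the other 5 genes. For Mybphl (7.32) and Atp1b4 (0.813) it lies just below them, with an interval that spans them.

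These ratios were compared between the groups of SHRs with two-sided exact permutation tests on the log2 ratio, 8 genes in 3 comparisons, 24 in all. The SHR libraries and ARNI replicate 2 were among those the 8 genes were picked on. Each comparison holds some of them, so the results describe these genes and are no independent test of the drugs. With 3 libraries against 3 the smallest p this test allows is 0.1. Sbk2 in ARB against SHR was the 1 comparison of the 24 in which the groups did not overlap: the ratio was 3.38, 4.79 and 4.26 in ARB and 4.91, 5.55 and 5.73 in SHR. The log2 difference was -0.39 (exact p = 0.1, Benjamini-Hochberg adjusted p = 0.96), so it did not pass. In ARB against SHR, 1.29% of all genes tested the same way had groups that did not overlap. In ARNI against SHR, 0 of 8 genes did so against 1% of all genes, and in ARNI against ARB 0 of 8 against 5.82%. Over the 3 comparisons together this was 1 of 24 (4.17%) against 2.70% of all genes. Without ARB replicate 2 the count was 2 of 24 (8.33%) against 4.98% of all genes, and without ARNI replicate 1 it was 3 (12.5%) against 9.01%. It was 5 (20.8%) without ARNI replicate 2 or ARNI replicate 3, against 4.01% and 5.55%. Several of the 8 genes have like profiles and the comparisons share libraries, so these counts are not counts of independent events.

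The level of the 8 genes was also compared between the groups of SHRs with edgeR's quasi-likelihood test across all genes. Here too each comparison holds SHR libraries or ARNI replicate 2, on which the 8 genes were picked. Their counts are therefore a description and no independent test of the drugs. A gene was called when its log2 fold change was 1 or more in size and its p, adjusted by Benjamini-Hochberg, was 0.05 or less. In ARB against SHR, 0 of 8 were called, where 0% of the 13979 genes tested were called. In ARNI against SHR it was 0 of 8 against 0% of 13955, and in ARNI against ARB 0 of 8 against 0% of 13948. None of the 8 had an unadjusted p under 0.05 in any of the 3 comparisons, and DESeq2 called 0 of 8 in each. Over all genes, 225, 227 and 539 had an unadjusted p under 0.05, and DESeq2 called 3, 7 and 18. The comparisons share libraries, so they are not independent of each other.

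The sizes behind these counts differed by gene. Creg1 changed by -0.02 ± 0.16 on the log2 scale in ARB against SHR and by -0.15 ± 0.19 in ARNI against SHR (SE, 3 libraries a group). Arhgef5 changed by -0.02 ± 0.16 and -0.19 ± 0.21. Bmp10, by contrast, had log2 differences of 0.47 ± 1.57 and 0.76 ± 2.38, with errors larger than the differences. The lowest adjusted p among the 8 was 0.993 (edgeR, ARNI against ARB). The median log2 difference of the 8 was 0.01 in ARB against SHR, -0.17 in ARNI against SHR and -0.14 in ARNI against ARB, against -0.01, 0.00 and 0.02 over all genes. These values do not show that the drugs left the genes unchanged, and in 5 of them ARNI replicate 2 lay at the WKY end of the scale. The count stayed at 0 when each library was left out in turn. With the WKY and SHR groups taken from the title words, it became 8 in ARB against SHR, where 11.1% of all genes were called. In ARNI against SHR it became 2, where 0.249% were. The title words put the libraries named WKY into the untreated SHR group. The 8 genes were picked for near absence from those libraries or a rise over them, so these 2 counts are no test.

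Genes whose levels over the 12 libraries were most like each of the 8 were ranked by the root mean square difference of centred log2 CPM, over 14449 genes. Mybphl was nearest to Sln, at 0.51, then to Atp1b4, at 0.89, and Myl4, at 0.93. Atp1b4 was nearest to Sln (0.51), Myl4 (0.54) and Rab15, a GTPase of membrane traffic (0.74). Sbk2 was nearest to Cylc2 (0.44), Tmem163 (0.48) and Cpa6 (0.53), and Sbk3 to Cylc2 (0.91), Sbk2 (0.91) and Rab15 (0.94). Cylc2, which lay at 5.36 to 13.4 CPM in the 8 libraries and at 0 in the WKY libraries and ARNI replicate 2, was thus the nearest gene to both kinase genes.

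Bmp10 had no close match. Its nearest gene was Hamp, which encodes the iron hormone hepcidin, at 2.02, followed by Atp1b4 (2.46) and Sln (2.47). Hamp lay at 1.39 to 2.93 CPM in WKY, at 2.12 CPM in ARNI replicate 2 and at 80.3 to 1637 CPM in the other 8. Fam163a was nearest to Bmp3, another ligand of the bone morphogenetic protein family (0.34), LOC103691564 (0.38) and Ccdc92 (0.40). Bmp3 lay at 0 CPM in WKY, at 0.157 CPM in ARNI replicate 2 and at 0.338 to 0.861 CPM in the other 8. These levels are close to the limit of 3 reads, so the match with Bmp3 is uncertain.

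Creg1 and Arhgef5 were each other's nearest gene, at 0.15. Both were then followed by Rtel1, a DNA helicase, at 0.30 and 0.34, and Sphkap, an anchoring protein of protein kinase A, at 0.32 and 0.39. Rtel1 lay at 7.02 to 9.04 CPM in WKY, at 24.8 CPM in ARNI replicate 2 and at 25.5 to 41.1 CPM in the other 8. The pair lies on different chromosomes, Creg1 on 13 and Arhgef5 on 4.

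The genes beside each of the 8 in the RefSeq gene order were then read, and those named in this paragraph were picked after their values were seen. Sbk3 and Sbk2 are neighbours on chromosome 1. Zfp579, a zinc finger gene on the other side of Sbk3, lay at 11.4 to 12.5 CPM in WKY, at 89.8 to 184 CPM in SHR and at 11 CPM in ARNI replicate 2, so 3 genes in a row were high in the atrial libraries. The strand setting of the counting is not given in the sources used here, so reads of overlapping neighbours could not be told apart.

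Beside Mybphl on chromosome 2, Psrc1, a microtubule regulator, lay at 0.355 to 0.870 CPM in WKY, at 7.65 to 14.4 CPM in SHR and at 0.550 CPM in ARNI replicate 2. Sort1, the sorting receptor gene on the other side, lay at 121 to 147, 233 to 397 and 130 CPM. Creg1 differed from its neighbours: Rcsd1 lay at 87.4 to 99.0 CPM in WKY and 94.3 to 103 CPM in SHR, and Cd247 at 1.42 to 2.40 and 1.43 to 1.95 CPM. The 3 olfactory receptor genes on one side of Arhgef5 had no read.

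Relatives and partners of the 8 genes were compared between SHR and WKY with the same edgeR test, from 6 lists of 70 genes, of which 61 passed the filter on low counts. In all, 12 of the 61 were called (19.7%), 9 higher and 3 lower in SHR, where 8.89% of the 13794 genes tested were called. The WKY libraries of this comparison are the ventricle-like ones, so chamber and strain cannot be told apart in it. DESeq2 called 16. The count was 4 without WKY replicate 1 (2.78% of all genes called), 3 without WKY replicate 2 or WKY replicate 3 (2.49% and 2.46%), 8 without SHR replicate 1 (4.12%) and 20 without SHR replicate 2 (15.7%). It was 5 in a single fit of all 12 libraries (4.01%) and 7 with the replicate number as a block (4.94%).

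Of 24 tested genes of signalling by Bmp10, 5 were higher in SHR and 0 lower, with a median log2 difference of 0.56 against 0.01 over all genes. Bmp5, a related ligand, rose by 3.76 ± 0.61 on the log2 scale (SE, adjusted p = 0.0125), from 0.474 to 0.914 CPM in WKY to 3.72 to 15.9 CPM in SHR. All 12 of its values were estimated from shared reads, as they were not whole. The inhibitory Smads, which are switched on by this pathway and restrain it, rose as well. Smad6 changed by 1.49 ± 0.37 (adjusted p = 0.0357) and Smad7 by 1.42 ± 0.22 (adjusted p = 0.0114). Id4, a transcriptional inhibitor among the targets of the pathway, rose by 1.85 ± 0.22 (adjusted p = 0.00558), and the ligand Bmp2 by 1.41 ± 0.22 (adjusted p = 0.0109).

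In ARNI replicate 2 these 5 genes stood near WKY and not near SHR. Smad6 was at 27.4 CPM there, against 22.4 to 24.3 CPM in WKY and 47.1 to 118 CPM in SHR. Smad7 was at 38.8 CPM, against 31.1 to 39.1 and 69.1 to 130 CPM, and Id4 at 6.21 CPM, against 6.35 to 8.0 and 21.8 to 36.9 CPM. In SHR replicate 3, nearly without Bmp10, Smad6 was at 47.1, Smad7 at 112 and Id4 at 26.6 CPM.

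The receptors of the ligand and the targets Id1 and Id3 did not pass. The receptor Acvrl1 had a log2 difference of -0.31 ± 0.13 (adjusted p = 0.130), Bmpr2 of 0.01 ± 0.10 (adjusted p = 0.922) and the co-receptor Eng of 0.87 ± 0.29 (adjusted p = 0.0732). Id1 had -0.48 ± 0.30 (adjusted p = 0.268) and Id3 0.47 ± 0.16 (adjusted p = 0.0757). Gdf2, the closest relative of Bmp10, was at or under 0.0870 CPM in every library and was not tested.

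Of 16 tested sodium pump and related genes, 1 was higher and 3 lower in SHR, with a median of 0.04. Atp1a4, a pump alpha subunit, fell by 5.36 (SE 0.51, adjusted p = 0.0032), with 2.86 to 3.04 CPM in WKY, 0 to 0.140 CPM in SHR and 0.0802 CPM in ARNI replicate 2. Atp1a4 was thus far under WKY in the ventricle-like library of the SHR strain. Atp4a, a proton pump subunit, fell by 3.75 (SE 0.67, adjusted p = 0.0162), and Atp12a, its non-gastric relative, rose by 2.36 ± 0.54 (adjusted p = 0.0300), both at under 2 CPM in WKY and SHR. The beta subunit Atp1b1 had a log2 difference of 0.16 ± 0.10 (adjusted p = 0.306).

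Of the 4 relatives of Mybphl, 1 was called: Mybph, the closest by name, rose by 1.17 ± 0.23 (adjusted p = 0.0196), from 5.07 to 7.57 CPM in WKY to 11.4 to 19.3 CPM in SHR, and was at 6.92 CPM in ARNI replicate 2. Mybpc3, the cardiac myosin-binding protein C, had a log2 difference of -0.47 ± 0.17 (adjusted p = 0.0920). Sbk1, the other SBK kinase gene, was at 53.1 to 64.8 CPM in WKY and at 12.7, 60.1 and 14.5 CPM in SHR, with 85.4 CPM in ARNI replicate 2. Its log2 difference of -1.10 ± 0.61 did not pass (adjusted p = 0.225), and its high values fell in libraries with ventricular markers, the opposite of Sbk2 and Sbk3. That coincidence was not tested.

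Of 13 tested relatives and partners of Arhgef5, 2 exchange factors were called. Arhgef19 rose by 1.74 ± 0.26 (adjusted p = 0.0094), and Arhgef26, named after its values were seen, by 1.39 ± 0.28 (adjusted p = 0.0216). In ARNI replicate 2 they lay at 0.550 and 4.01 CPM, against 0.783 to 1.02 and 3.07 to 4.62 CPM in WKY, so neither kept the SHR level there as Arhgef5 did. Of the relatives and receptors of Creg1, 0 of 2 tested were called. Igf2r, a receptor it binds, had a log2 difference of 0.13 ± 0.16 (adjusted p = 0.552), and Creg2 had no read in any WKY or SHR library. In the treatment comparisons, 0 of 59 tested relatives and partners were called in each, where 0% of all genes tested were called.

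**Figure D5:**
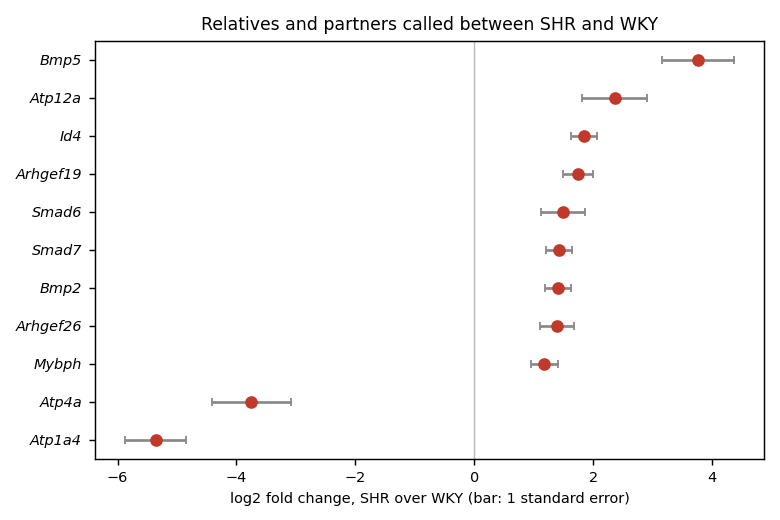
Log2 fold change of SHR over WKY for 11 of the relatives and partners called, with 1 standard error as bars (edgeR, 3 libraries a group). Bmp5 is highest at 3.76, and Atp4a and Atp1a4 lie at -3.75 and -5.36.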

How the data were processed

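The authors filtered single-end reads of 50 bases with SOAPnuke, aligned them with HISAT2 2.0.4 and Bowtie2 2.2.5, and counted them with RSEM; the deposited values are expected counts of genes, estimated and not normalized. The genome build is Rnor_6.0 per the labels' processing notes. The deposited log2 fold change and p-value columns hold the authors' own comparison of SHR with WKY and were not used. Of the values, 23.6% were not whole, and all 96 of the 8 genes were.

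Expected counts were rounded. CPM were computed on library totals. Groups of 3 libraries were compared with edgeR 4.0.16 (filterByExpr, TMM, quasi-likelihood test) in R 4.3.3 on the 6 libraries of a pair, with DESeq2 1.42.0, other scalings and filters, all libraries in 1 fit, left-out libraries and title-based groups as alternatives. Scripts were tested on simulated data. Python 3.11.15 and scipy 1.17.1 gave ratios and exact tests. Depth was 11252361 to 15823525 reads; intervals and floors cover counting error only. Each library is 1 rat.

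The members and gene lists were chosen with earlier results of these data known. Named were the 8 genes, Myl7, the 3 genes nearest to each, called relatives (up to 10 by fold), listed partners, markers and strain-linked genes; others are identified as named after their values were seen. The leaving out of libraries for the Myl7 ratios was chosen after seeing the data. Marker lists of fibroblast, endothelial, smooth muscle, immune, adipocyte, mesothelial, neural, skeletal muscle and lung cells were also summed. Replicate numbers were checked for pairing by the correlation of deviations from group means. In ARNI against SHR it was 0.51, 0.46 and 0.19, which meets the limit set for pairing, a hint from the data and not from the labels. In the other 3 comparisons at least 1 correlation was under 0. RefSeq names and promoters are of build GRCr8 and were matched by identifier. Some of the listed genes are not reported here.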

Additional observations from a re-analysis of the deposited data

How the results depend on the processing

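The 0 calls among the 8 genes held in each treatment comparison under DESeq2, its size factors, no filter, 1 fit of all libraries, the replicate block and every left-out library. Groups by title words gave 8 calls in ARB against SHR and 2 in ARNI against SHR, because that grouping puts the libraries named WKY into the untreated SHR group. The genes were picked for low levels in those libraries or a rise over them, so these calls are no test of the drugs. Under the title words, log2 differences in ARB against SHR were 2.43 for Creg1, 2.52 for Arhgef5 and 13.62 for Bmp10. In ARNI against SHR they were 2.29 for Creg1 and 2.33 for Arhgef5. Leaving out single libraries, Bmp10 ranged from -0.11 to 2.41 in ARB against SHR, from -2.43 to 2.70 in ARNI against SHR and from -2.91 to 0.87 in ARNI against ARB. Creg1 ranged from -0.10 to 0.13 in ARB against SHR and from -0.23 to 0.0081 in ARNI against ARB, and Arhgef5 from -0.11 to 0.12 and from -0.33 to 0.022.

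With the replicate number as a block, Bmp10 was -1.37 in place of 0.30 in ARNI against ARB and 2.2 in place of 0.47 in ARB against SHR, and the 12 calls among relatives and partners between SHR and WKY became 7; the block changed no other call, and the cause was not tested. These calls were 5 in 1 fit of all libraries and 3 to 20 with single libraries left out. Replicate numbers of SHR and WKY correlated at 0.03, -0.05 and -0.07. The ratios to Myl7 gave 1 to 5 groups without overlap with single libraries left out, and 1 with Myl4 in place of Myl7. Of 221 values recomputed, 191 were scored as the same, by a rule that differed with the kind of value. A count was the same if it stayed close to the main one, as 16 calls did to 12. An SHR over WKY difference was the same if it kept its direction and moved by less than the SD of the SHR libraries. A treatment difference was the same if it kept its direction and its side of the calling thresholds.

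Depth limits the WKY levels of Mybphl, Atp1b4 and Bmp10, which rest on 0 to 2 reads a group, and 3 libraries a group limit every test.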

Other observations

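Markers of other cell types also varied between the libraries in which the 8 genes were read. The summed level of 5 adipocyte markers was 361 CPM in ARB replicate 2 and 391 CPM in ARNI replicate 3, and at most 15.3 CPM in the other 10. The summed level of 6 fibroblast markers was 1152 to 2967 CPM in 11 libraries and 4284 CPM in SHR replicate 3, the library nearly without Bmp10. The 4 smooth muscle markers reached 682 CPM and the 6 neural markers 178 CPM in ARNI replicate 3, where Fam163a was highest at 13.8 CPM, against at most 204 and 89.8 CPM elsewhere. The 5 mesothelial markers summed to 48.3 to 60.7 CPM in WKY, 38.3 CPM in ARNI replicate 2 and 60.0 to 293 CPM in the other 8. Endothelial markers summed to 524 to 1379 CPM, immune markers to 30.0 to 165 CPM, sinus node and right atrial markers to 40.9 to 230 CPM, skeletal muscle markers to 0.651 to 1.82 CPM and lung markers to 3.68 to 33.1 CPM. The part of these cells in the levels of the 8 genes was not tested.

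Celsr2, the second gene beyond Mybphl on the side of Psrc1, and Nat14, the second gene beyond Sbk2, differed from the nearer neighbours. Celsr2 lay at 2.09 to 2.58 CPM in WKY, at 6.23 to 7.52 CPM in SHR and at 5.90 CPM in ARNI replicate 2, nearer to SHR than to WKY. Nat14 lay at 2.22 to 3.58, 7.17 to 10.4 and 4.32 CPM. Both were named after their values were seen.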
